A study of Arabidopsis thaliana with 22 samples.

Results

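AT1G15125 and AT4G21870 were followed in leaves of Arabidopsis thaliana treated with abscisic acid (ABA) or a mock solution, as 2 genes of the 17481 annotated probe sets on the array. AT1G15125 was chosen by having the largest fall after ABA in wild type, and AT4G21870 was chosen by having the largest fall after ABA in the ost1-2 sal1-8 double mutant, among 13096 tested probe sets of a single gene. Transcript abundance was measured on 22 Affymetrix Arabidopsis Gene 1.0 ST arrays as log2 fluorescence intensities, where a difference of 1 is a change of 2-fold. Plants of 4 genotypes, about 30 days old by the labels, received a mock treatment or 20 µM ABA, with 3 arrays for each of the 8 groups except both ost1-2 groups, which had 2. The labels give 45 min for the treatment, whereas their protocol text gives 2 h. Each array is named below by the sample number in its label.

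Wild type was the F1 hybrid of the ecotypes Col-0 and Ler. The sal1-8 mutant, labelled alx8, was in Col-0 and carried no mutation in OST1. The ost1-2 mutant, labelled ost1, was in Ler and carried no mutation in SAL1. The double mutant, labelled ost1alx8, carried both mutations and descended from both ecotypes. In every comparison between genotypes the mutation and the ecotype background cannot be told apart, whereas a response to ABA was taken within a genotype. The sample numbers were split here into 7 runs, each with mock arrays only or ABA arrays only. Some boundaries lay between consecutive numbers where the treatment changed, such as 117 (mock) and 118 (ABA). Mock and ABA arrays thus share no run by this definition. The labels do not call these runs batches, but if they were, a response could not be told apart from a batch difference. Of the marker genes of leaf cell types, RCA, the Rubisco activase of photosynthetic cells, was the only mesophyll marker of 6 that was measured. It lay between 11.45 and 12.09 on the log2 scale in all arrays, a bright signal throughout. In wild type it read 11.97 to 12.09 after mock treatment and 11.63 to 11.79 after ABA, without overlap. This change of -0.31 was not called (limma adjusted p = 0.12).

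ABA accumulates in plants during drought, closes the stomata and resets the expression of many genes. The hormone binds receptors that inhibit protein phosphatases, and this releases the protein kinase OST1, which is best known for its role in guard cells. SAL1 is a phosphatase that degrades the nucleotide PAP, a signal from chloroplast to nucleus that accumulates in sal1 mutants. AT1G15125 is annotated as a protein with an S-adenosyl-L-methionine-dependent methyltransferase domain and is grouped here with the SABATH family. Enzymes of that family move a methyl group onto the carboxyl group of small acids such as salicylic or jasmonic acid, and the methyl esters formed differ from the free acids in activity and volatility. The annotation used here gives AT4G21870 no name, and it was set beside the small heat shock proteins from general knowledge only. Small heat shock proteins bind unfolding proteins and keep them from clumping.

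AT1G15125 gave a bright signal in mock-treated wild type and a signal near that of an average probe set after ABA. The mock arrays of wild type read 10.36 (array 105), 10.82 (114) and 10.49 (130). The ABA arrays read 6.09 (118), 6.07 (126) and 4.35 (134). The 2 groups were far apart, and the ABA arrays lay between the 46.9 and 67.7 percentiles of their own array, whereas the mock arrays lay between the 97.9 and 98.6 percentiles. The difference of the means was -5.06 on the log2 scale, 33.3-fold lower. This contrast chose the gene, so it is a description and was not tested. The next largest falls in wild type were those of AT4G21870, with -3.87, and AT3G17640, with -3.69. In whole leaves, fewer cells of a type and less RNA per cell cannot be told apart.

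In sal1-8 the transcript stayed high after ABA. Mock arrays of sal1-8 read 11.26 (106), 11.13 (115) and 11.78 (131), and ABA arrays read 9.98 (110), 11.20 (127) and 10.04 (135). The treatments overlapped, because ABA array 127 lay above mock array 115. The change was -0.98 (SE 0.54, 95% interval -2.12 to 0.15), which did not pass limma's test (adjusted p = 0.47). This does not show that ABA had no effect on the gene in sal1-8.

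In ost1-2 and in the double mutant all ABA arrays read lower than all mock arrays, but neither change passed the test. The ost1-2 arrays read 8.18 (107) and 10.86 (116) after mock treatment and 6.71 (120) and 8.01 (136) after ABA. The mock arrays differed from each other by more than the mean change of -2.16 (SE 0.66, 95% interval -3.55 to -0.77), and limma's adjusted p was 0.28. Without mock array 107 the change was -3.50 and without mock array 116 it was -0.82, neither called. The double mutant read 10.56 (108), 10.96 (117) and 10.31 (133) after mock treatment and 9.26 (113), 9.12 (121) and 9.31 (129) after ABA. Its change of -1.37 (SE 0.54, 95% interval -2.51 to -0.24) had an adjusted p of 0.32 in the limma fit over all groups. When only the 6 arrays of the double mutant were fitted the adjusted p was 0.0058 (SE 0.20). Across all tested probe sets, 0.733% were called lower after ABA in sal1-8, 0.0145% in ost1-2 and 0.421% in the double mutant.

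**Figure D1:**
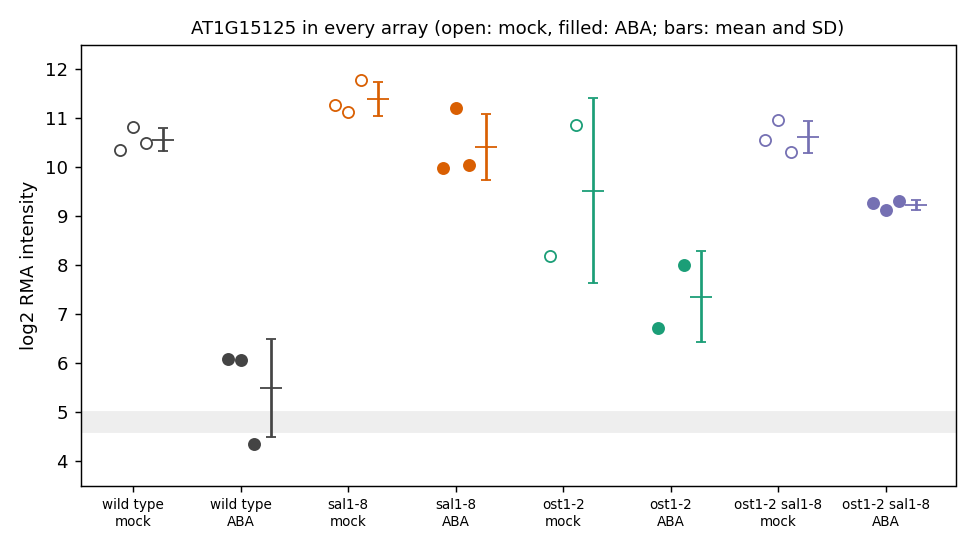
Log2 intensity of AT1G15125 (vertical axis) in each of the 22 arrays by group (horizontal axis), with open points for mock and filled points for ABA, bars for the mean and SD, and a grey band for the range of array medians (4.60 to 5). The 3 wild type ABA arrays (4.35 to 6.09) lie below all other arrays, whereas the ABA arrays of sal1-8 (9.98 to 11.20) and of the double mutant (9.12 to 9.31) stay far above the band.

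After ABA the 4 genotypes ranked without any overlap of arrays in AT1G15125. The mean was 10.41 ± 0.68 (SD, n = 3) in sal1-8, 9.23 ± 0.10 (n = 3) in the double mutant, 7.36 ± 0.93 (n = 2) in ost1-2 and 5.50 ± 1.00 (n = 3) in wild type. The level in ost1-2 was lower than in sal1-8 by a log2 difference of -3.05 (SE 0.61, limma adjusted p = 0.0012), and this held with each array left out. The double mutant was above ost1-2 by 1.87 (SE 0.61, adjusted p = 0.046), a call at the edge of the threshold that was lost in 14 of 22 fits with an array left out, with a difference of 1.22 when ost1-2 ABA array 120 was left out. The neighbours at the top, the double mutant and sal1-8, differed by -1.17, which did not pass (limma adjusted p = 0.22). The share of all tested probe sets called in these comparisons was 22.3% for ost1-2 against sal1-8, 13.2% for the double mutant against ost1-2 and 5.40% for the double mutant against sal1-8. Calls between genotypes were thus common among all genes. Against wild type, whose ABA arrays chose the gene, the ABA level was 4.91 higher in sal1-8 (30.0-fold), 1.86 higher in ost1-2 and 3.73 higher in the double mutant (13.3-fold), given without a test.

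After mock treatment AT1G15125 differed less between the genotypes. The mean was 11.39 ± 0.34 (SD, n = 3) in sal1-8, 10.61 ± 0.33 (n = 3) in the double mutant, 10.56 ± 0.24 (n = 3) in wild type and 9.52 ± 1.89 (n = 2) in ost1-2. The double mutant and wild type overlapped, and ost1-2 array 116 lay among them while array 107 lay below every other mock array. The level in ost1-2 was lower than in sal1-8 by a log2 difference of -1.87 (SE 0.61, limma adjusted p = 0.026, with 27.4% of all probe sets called). Without ost1-2 mock array 107 the difference was -0.53 and was not called, and without sal1-8 mock array 131 it was -1.68 and not called. The double mutant did not differ past the threshold from sal1-8 (-0.78, limma adjusted p = 0.57, 3.31% of probe sets called) or from ost1-2 (1.09, adjusted p = 0.22, 19.7% called). Against ost1-2 the sign turned to -0.25 without array 107, and the difference rose to 2.43 and was called without array 116.

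The responses of AT1G15125 were then compared between genotypes. The change in ost1-2 minus that in sal1-8 was -1.17 (limma adjusted p = 0.59), the double mutant minus sal1-8 gave -0.39 (adjusted p = 1) and the double mutant minus ost1-2 gave 0.78 (adjusted p = 0.84). None of these passed, at a background of 0.167%, 0% and 0.225% of probe sets called by limma. For the double mutant against sal1-8, where 0 were called, 382 probe sets had an unadjusted p under 0.05. Against the wild type response the change was smaller by 4.07 in sal1-8, 2.90 in ost1-2 and 3.68 in the double mutant, which is a description because wild type chose the gene.

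**Figure D2:**
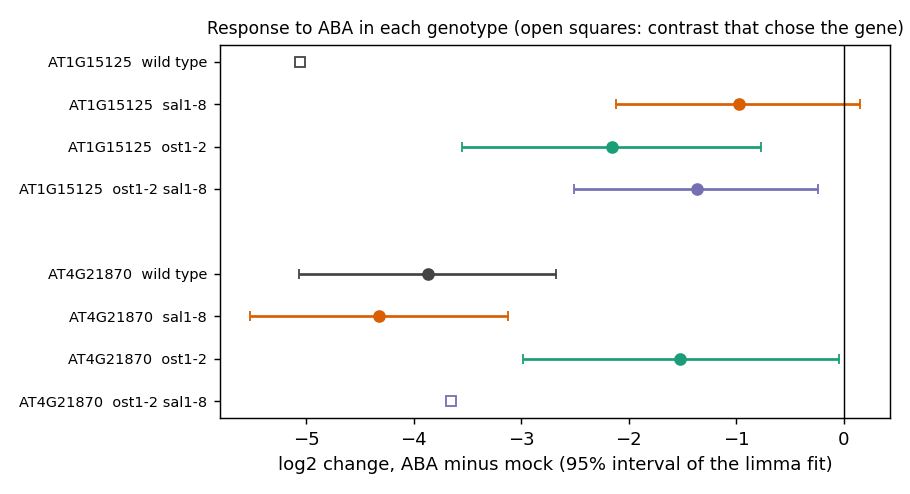
Log2 change after ABA (horizontal axis, ABA minus mock) of both genes in each genotype, as estimated by limma, with 95% intervals for the tested contrasts. Open squares without intervals are the contrasts that chose the gene. AT1G15125 changed by -5.06 in wild type and by -0.98 in sal1-8, whereas AT4G21870 changed by -3.87 in wild type and by -4.32 in sal1-8.

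AT4G21870 fell after ABA in wild type and sal1-8, and the ABA arrays of all genotypes lay between 4.01 and 5.42. The wild type mock arrays read 9.49 (105), 7.66 (114) and 7.19 (130), and the ABA arrays read 4.17 (118), 4.30 (126) and 4.25 (134). The treatments did not overlap, and the mock arrays spread over a much wider range than the ABA arrays. The change was -3.87 (SE 0.57), 14.7-fold lower, and passed limma's test (adjusted p = 0.00016). Of all tested probe sets, 5.65% were called lower in wild type.

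In sal1-8 the fall of AT4G21870 was at position 1 among single-gene probe sets. Mock arrays of this genotype read 9.10 (106), 9.84 (115) and 8.93 (131), and its ABA arrays read 5.03 (110), 4.46 (127) and 5.42 (135). The groups were far apart. The change was -4.32 (SE 0.57), 20.0-fold lower, with a limma adjusted p of 0.00046. The wild type and sal1-8 calls were kept in every alternative that could be fitted, with limma adjusted p up to 0.0084 and 0.0035. The run could not be a fixed block here, because mock and ABA arrays share no run by the way the runs were defined.

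In ost1-2 the mock arrays of AT4G21870 read lower than all mock arrays of the other genotypes, at the 57.6 and 71.9 percentiles of their own array. They read 5.26 (107) and 6.54 (116), and the ABA arrays read 4.01 (120) and 4.77 (136). The groups did not overlap, but the change of -1.52 (SE 0.70, 95% interval -2.98 to -0.05) did not pass limma's test (adjusted p = 0.52). It was -2.15 without mock array 107 and -0.88 without mock array 116, and passed in neither case. In the double mutant, which chose the gene, mock arrays read 9.35 (108), 9.77 (117) and 7.20 (133) and ABA arrays read 5.15 (113), 5.28 (121) and 4.95 (129). This mean change of -3.65 is a description, and the falls next to it in that genotype were those of AT1G72416, with -3.2, and AT3G23550, with -2.85.

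**Figure D3:**
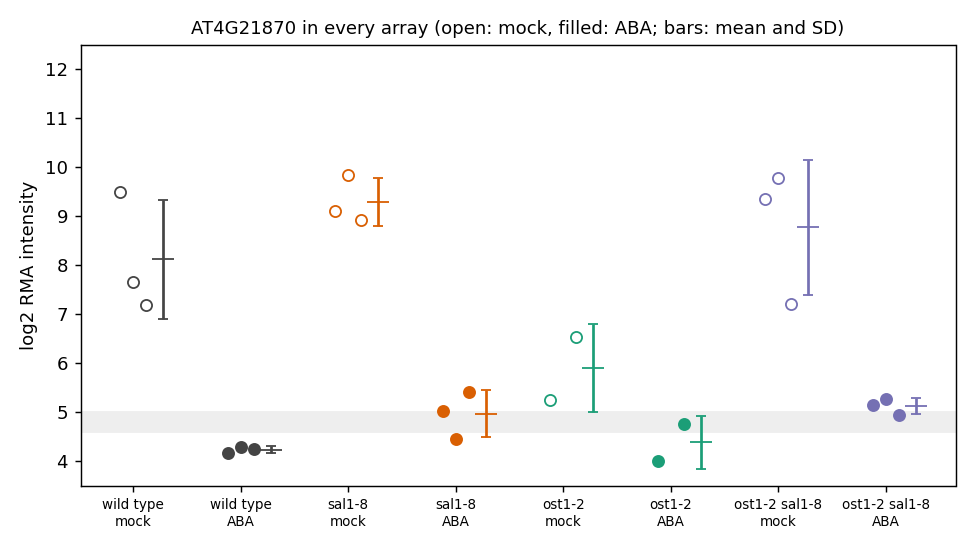
Log2 intensity of AT4G21870 (vertical axis) in each array by group (horizontal axis), with open points for mock, filled points for ABA, bars for the mean and SD and a grey band for the range of array medians. All ABA arrays lie between 4.01 and 5.42, and the ost1-2 mock arrays (5.26 and 6.54) lie below all mock arrays of the other genotypes.

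The order of the mock levels of AT4G21870 was sal1-8 with 9.29 ± 0.48 (SD, n = 3), the double mutant with 8.77 ± 1.38 (n = 3), wild type with 8.12 ± 1.21 (n = 3) and ost1-2 with 5.90 ± 0.90 (n = 2). The first 3 of these overlapped, and ost1-2 stood below them. The level in ost1-2 was lower than in sal1-8 by a log2 difference of -3.39 (SE 0.64, limma adjusted p = 0.00062), and leaving out any array kept the call. Against wild type the difference in ost1-2 was -2.21 (SE 0.64), which did not pass (limma adjusted p = 0.09, with 1.96% of probe sets called), although no arrays overlapped. Between sal1-8 and wild type the difference was 1.17 (adjusted p = 0.14 by limma, with 21.2% called), and without wild type mock array 105 it was 1.86 and called. The double mutant, given without a test, was 0.66 above wild type and 2.87 above ost1-2 (7.32-fold), and differed by -0.52 from sal1-8.

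After ABA the means of AT4G21870 lay close together, at 5.13 ± 0.17 (SD, n = 3) in the double mutant, 4.97 ± 0.48 (n = 3) in sal1-8, 4.39 ± 0.54 (n = 2) in ost1-2 and 4.24 ± 0.07 (n = 3) in wild type. These arrays lay between the 41.6 and 58.1 percentiles of their own array. How far a further fall could have been measured there was not tested. No tested difference passed: sal1-8 minus wild type was 0.73 (limma adjusted p = 0.36, 23.6% of probe sets called), ost1-2 minus wild type was 0.15 (adjusted p = 0.92, 10.6% called) and ost1-2 minus sal1-8 was -0.58 (adjusted p = 0.54). Without ost1-2 ABA array 136, the ost1-2 minus wild type difference was -0.24. All ABA arrays of sal1-8 and of the double mutant lay above those of wild type, so the levels are not shown to be equal.

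The responses of AT4G21870 in sal1-8 and wild type differed by -0.45 (limma adjusted p = 0.91, 0.276% of probe sets called). The response in ost1-2 was smaller than in wild type by 2.36 (SE 0.90, adjusted p = 0.12, 7.08% of probe sets called) and smaller than in sal1-8 by 2.81 (SE 0.90, adjusted p = 0.19), and neither difference passed limma's test. With array weights the latter was 2.55 with an adjusted p of 0.048. The double mutant response, as a description, differed by 0.23 from wild type, 0.67 from sal1-8 and -2.13 from ost1-2.

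Side by side, AT1G15125 and AT4G21870 changed by -0.98 and -4.32 in sal1-8 and by -2.16 and -1.52 in ost1-2. The response of AT1G15125 minus that of AT4G21870 was 3.34 in sal1-8 (p = 0.1 by an exact test). In ost1-2 it was -0.64 (exact test p = 0.67). The smallest p these arrays allowed was 0.1 in sal1-8 and 0.33 in ost1-2, so the test could not decide the question. Within sal1-8 arrays the genes differed by 4.63 to 6.73 after ABA and by 1.29 to 2.85 after mock treatment, without overlap. Within ost1-2 arrays these ranges overlapped, at 2.7 to 3.24 and 2.92 to 4.31. In wild type and the double mutant the arrays had served to choose a gene, and the difference between the genes was not tested.

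**Figure D4:**
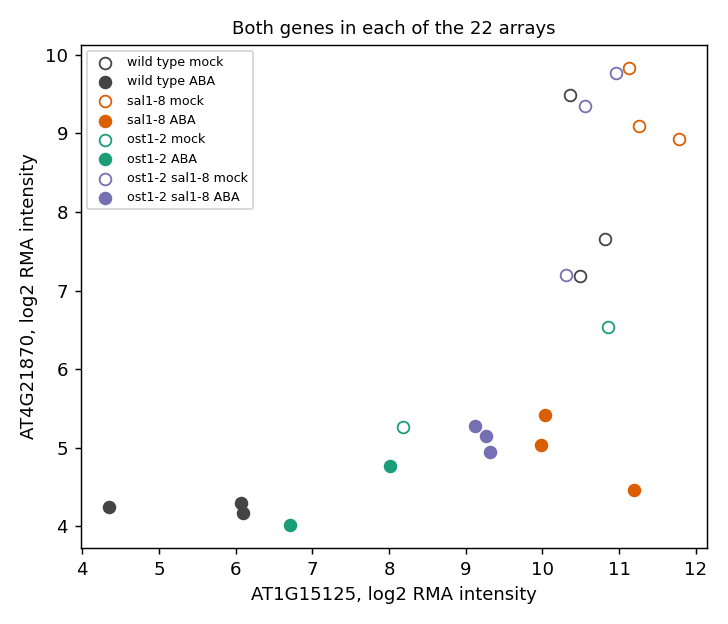
Log2 intensity of AT1G15125 (horizontal axis) and AT4G21870 (vertical axis) in each of the 22 arrays, with colours for genotypes, open points for mock and filled points for ABA. ABA arrays of all genotypes lie at 5.42 or below on the vertical axis, but from 4.35 in wild type to 11.20 in sal1-8 on the horizontal axis.

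Both genes varied strongly between arrays of a group. The SD within groups was 0.75 for AT1G15125 and 0.80 for AT4G21870, against a median of 0.26 over all tested probe sets, at the 98.4 and 98.8 percentiles. For AT4G21870 the SD of the mock arrays against that of the ABA arrays was 1.21 against 0.07 in wild type, 1.38 against 0.17 in the double mutant, 0.90 against 0.54 in ost1-2 and 0.48 against 0.48 in sal1-8.

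No other SABATH member was called lower after ABA in the limma fit of all 22 arrays without weights, and most were dim. How far a fall of dim members could have been measured was not tested. In wild type mock arrays 10 of the 13 other tested members had means of 2.83 to 3.84, below the lowest array median of 4.60, and only JMT, AT3G21950 and FAMT were above it. Of 24 listed members 14 were tested. Among the 13 other than AT1G15125, 0 were called lower in any genotype by limma. An unadjusted limma p under 0.05 downwards was found for 1 in each of wild type, ost1-2 and the double mutant and 0 in sal1-8. Upwards there was 1 in wild type, 4 in sal1-8, 0 in ost1-2 and 3 in the double mutant. Over all tested probe sets and both directions, such a p was found for 3650 in wild type and 1857 in sal1-8. It was found for 1288 in ost1-2 and 1387 in the double mutant. With 5.65% of all probe sets called lower in wild type and less in the mutants, a count of 0 called among 13 is near the background of calls. Lower means after ABA were found in 3 of the 13 in wild type, 4 in sal1-8, 8 in ost1-2 and 2 in the double mutant. The median log2 change of these 13 was 0.21 in wild type, 0.26 in sal1-8, -0.39 in ost1-2 and 0.07 in the double mutant, beside -0.03, -0.02, -0.02 and 0.02 over all tested probe sets. In wild type 1 member was called, and it rose. This was BSMT1, which methylates salicylic and benzoic acid. It read 2.66 (105), 3.23 (114) and 3.21 (130) after mock treatment and 6.54 (118), 6.09 (126) and 3.55 (134) after ABA, so that array 134 lay just above the mock arrays. The change was 2.36 (SE 0.76, limma adjusted p = 0.048, with 6.40% of probe sets called higher in wild type). With array weights, or without mock array 105 or ABA array 134, 1 other member was called lower in wild type, and with array weights 3 members were called higher in sal1-8.

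BSMT1 was at the edge of the threshold, and its call was lost when every annotated probe set was tested, when only the wild type arrays were fitted, with trend and robust empirical Bayes and in 16 of 22 fits with an array left out. In sal1-8 it read between 2.02 and 4.29 in mock arrays and between 4.89 and 6.44 in ABA arrays, a change of 2.58 that did not pass (limma adjusted p = 0.092), and in the double mutant the change was 2.16 (adjusted p = 0.23). In ost1-2 the mock arrays read 5.90 (107) and 4.51 (116) and the ABA arrays 4.64 (120) and 3.24 (136), so that array 120 lay between the mock arrays and array 136 below them, with a change of -1.26 (adjusted p = 0.76 by limma). FAMT, which methylates farnesoic acid, changed by 1.02, 1.79, -1.45 and 1.27 in wild type, sal1-8, ost1-2 and the double mutant, and none of these passed. JMT, which methylates jasmonic acid, changed by 0.32 in wild type (limma adjusted p = 0.79), and NAMT1, which methylates nicotinic acid, by 1.06 in the double mutant (adjusted p = 0.079). These were named beside BSMT1 after their values were seen. Of all tested probe sets 1.39% were called higher in sal1-8, 0.0218% in ost1-2 and 1.42% in the double mutant.

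No other small heat shock protein was called after ABA in the limma fit of all 22 arrays without weights, and most were dim. Here too it was not tested how far a fall could have been measured. In wild type mock arrays 6 of the 8 other tested members had means of 2.67 to 3.90, below the lowest array median, and AT5G54660 (6.02) and AT2G19310 (7.55) were above it. These members changed by -0.07 and 0.05 in wild type. Of 19 listed members 9 were tested, and of the 8 others 0 were called in any genotype by limma and 0 had an unadjusted p under 0.05. With 5.65% of all probe sets called lower and 6.40% higher in wild type, a count of 0 called among 8 is near the background of calls. At an unadjusted limma p under 0.05, the background over all tested probe sets was 3650 in wild type and 1857 in sal1-8. It was 1288 in ost1-2 and 1387 in the double mutant. This background was larger than that of calls, and whether 0 among 8 falls below it was not tested. Their changes ran from -0.25 to 0.80 in wild type, from -0.07 to 0.45 in sal1-8, from -0.58 to 0.92 in ost1-2 and from -0.17 to 0.38 in the double mutant. Their medians were 0.03, 0.14, 0.20 and 0.09 in that order of genotypes. With array weights, or without ABA array 118, 1 of the 8 was called higher in wild type.

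**Figure D5:**
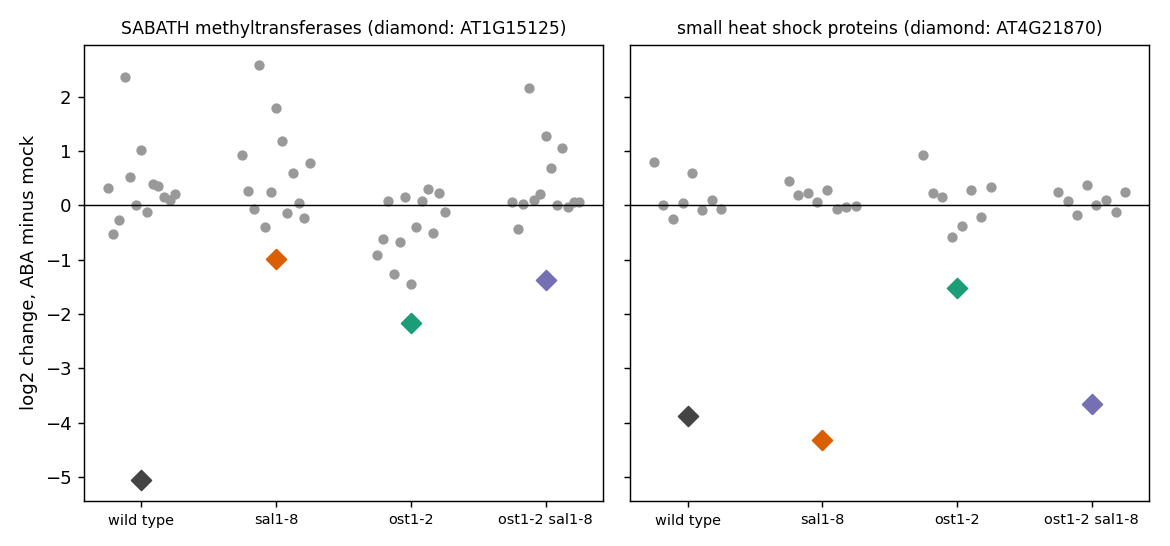
Log2 change after ABA (vertical axis, ABA minus mock) of tested SABATH methyltransferases (left) and small heat shock proteins (right) in each genotype, with AT1G15125 and AT4G21870 as diamonds and the 13 and 8 other members as grey points. Over all genotypes the other small heat shock proteins lie between -0.58 and 0.92, whereas AT4G21870 lies between -4.32 in sal1-8 and -1.52 in ost1-2, and in wild type the highest grey point on the left is BSMT1 at 2.36.

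The genes whose profiles over the 22 arrays were most like that of AT1G15125 were AT2G21080 (Pearson r = 0.90), AT1G16650 (0.884), AT3G21140 (0.85), AT5G44450 (0.847) and AT3G04210 (0.844). Their responses in wild type ran from -2.31 for AT2G21080 to -0.62 for AT5G44450, so all fell less than AT1G15125. With the group means removed, r was between 0.02 and 0.47, so that these profiles were shared mainly between groups. For AT4G21870 the most similar were AT1G66940 (r = 0.955), AT2G18910 (0.951), AT3G06070 (0.937), UGT72E1 (0.935), which encodes a UDP-glycosyltransferase, and AT5G07580 (0.929). Within groups r stayed between 0.73 and 0.86, so these genes also tended to follow AT4G21870 from array to array within a group. These correlations share arrays and groups and describe the profiles only.

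AT1G66940 came closest to AT4G21870. It read 8.85 (105), 7.36 (114) and 7.84 (130) in wild type mock arrays and 4.07 (118), 4.74 (126) and 5.07 (134) after ABA. Array 105 was the highest of these mock arrays in both genes, but arrays 114 and 130 ranked in opposite order. Among sal1-8 mock arrays, array 115 was the highest for AT4G21870 (9.84) and the lowest for AT1G66940 (8.13). In the ost1-2 mock arrays AT1G66940 read 6.05 (107) and 7.27 (116), below all other mock arrays, and array 107 was the lower in both genes. Its changes after ABA were -3.39 in wild type, -2.83 in sal1-8, -1.29 in ost1-2 and -2.07 in the double mutant. UGT72E1 changed by -2, -1.57, -1.61 and -1.52 in the same order.

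By gene order in the RefSeq annotation of TAIR10.1, the genes directly beside AT1G15125 did not share its change. AT1G15120 changed by -0.35 and AT1G15130 by 0.00 in wild type, and neither was called in any genotype. Beside AT4G21870, AT4G21865 changed by -0.07 in wild type and was not called in any genotype. In contrast, AT4G21880 fell by 0.82 in wild type and was called there and in no other genotype. In ost1-2, where AT4G21870 changed by -1.52, AT4G21865 changed by -0.97 and AT4G21880 by -0.02, none of them called.

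FMA, a transcription factor of the guard cell lineage and the only guard cell marker of 7 that was measured, also fell after ABA in wild type. It read 6.82 (105), 6.93 (114) and 7.54 (130) in mock arrays and 5.58 (118), 6.19 (126) and 5.94 (134) in ABA arrays, a fall of 1.19 on the log2 scale (SE 0.21, limma adjusted p = 0.00075). In the other genotypes its arrays lay between 6.63 and 7.52 and it was not called. Its part in the results for AT1G15125 and AT4G21870 was not tested.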

How the data were processed

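Leaf RNA was measured on 22 arrays. The deposited values are log2 intensities of 38408 probe sets, which the authors background corrected, quantile normalized and summarised by RMA with oligo 1.28.0 in R 3.1.0 (limma 3.20.1 in their tests). Groups came from the labels, and all columns were used. The array annotation names 17481 probe sets. The 13780 of these with the highest group mean were tested, and both genes passed this filter. A single linear model over 8 groups was fitted with limma 3.58.1 in R 4.3.3 and tested on simulated data. Benjamini-Hochberg adjustment covered all probe sets of a comparison, and a call needed an adjusted p under 0.05 and a fold above 1.5.

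The 2 genes and all lists were chosen with earlier results of these data known. Contrasts using the arrays on which a gene was chosen were not tested. Named genes were the 2 members, the next largest falls, the 5 probe sets with the highest Pearson r, and called list members. Gene-order neighbours, the marker RCA and the uncalled list members AT3G21950, FAMT, JMT, NAMT1, AT5G54660 and AT2G19310 were added outside this rule. Lists of 13 methyl esterases and 12 heat shock factors and large chaperones had 0 annotated members. Protein identities were not computed. P-values measure the spread between these samples, described as biological replicates; precision is limited by the number of arrays. Alternatives were other sets of probe sets, groups, variance models, scalings, run blocks and leaving out each array.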

Additional observations from a re-analysis of the deposited data

How the results depend on the processing

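The lower mock level of AT4G21870 in ost1-2 than in sal1-8 was called under every alternative. So was the lower ABA level of AT1G15125 in ost1-2 than in sal1-8. The falls of AT4G21870 in wild type and sal1-8 were called under every alternative that could be fitted. Within a genotype, the run of sample numbers could not be a fixed block for a response, because the runs were defined with a single treatment each. For the ABA level of AT1G15125 in the double mutant against ost1-2, the call was lost with every annotated probe set (1.87), trend and robust empirical Bayes (1.87), a further quantile normalization (1.81), centred arrays (1.76) and the run of sample numbers as a fixed block (1.56), and the adjusted p ran from 0.0029 to 0.41 over its alternatives. The runs were drawn from the sample numbers, in part only where the treatment changed, and are not labelled as batches. With only the groups compared, the mock level of AT1G15125 in ost1-2 against sal1-8 (-1.87) was not called, while its response in the double mutant (-1.37) was. For AT4G21870 the mock level in ost1-2 against wild type was called with array weights (-2.43) and with the fixed block (-2.69), and the response in ost1-2 minus that in sal1-8 with array weights (2.55). The cause of these changes was not tested.

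With each array left out in turn, the values for AT1G15125 ran from -3.21 to -0.53 for mock ost1-2 minus sal1-8, from -0.25 to 2.43 for mock double mutant minus ost1-2 and from 1.22 to 2.53 for the same pair after ABA. Its response in ost1-2 ran from -3.50 to -0.82. The differences in its response ran from -2.51 to 0.16 for ost1-2 minus sal1-8, from -0.60 to 0 for the double mutant minus sal1-8 and from -0.55 to 2.12 for the double mutant minus ost1-2. For AT4G21870 the values ran from -2.15 to -0.88 for the response in ost1-2, from 0.71 to 1.86 for mock sal1-8 minus wild type, from -2.85 to -1.52 for mock ost1-2 minus wild type, from -0.24 to 0.53 for ABA ost1-2 minus wild type and from -1.13 to 0.02 for the response in sal1-8 minus that in wild type. The mock difference of AT4G21870 between ost1-2 and wild type was also called without double mutant mock array 133 (-2.21). Centring the arrays shifted the median of all probe sets by up to 0.23 in a contrast. With 2 arrays in each ost1-2 group, a single array decided several of these values.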
